A study of Mus musculus with 15 samples.

Results

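Enteric neuron and glia genes are 29 genes that mark the nervous system of the gut wall, out of 36528 gene IDs measured by RNA-seq in mouse fetal intestine at E16.5 (the age in embryonic days). They are defined by name, as genes known from enteric neurons and glia, with no threshold on a level or a difference. All 29 were found by symbol. Of these, 23 mark neurons, from regulators and growth factor receptors to transmitters and neuropeptides, and 6 mark glia and their progenitors. Npy, with 0 to 18 counts per library, did not pass the filter on low counts, so 28 were tested.

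The enteric nervous system forms from neural crest cells that enter the fetal gut and migrate along it. GDNF made by the gut wall signals through Ret and its coreceptor Gfra1, and endothelin 3 signals through Ednrb, and both pathways keep the migrating progenitors dividing and moving. Progenitors that express Sox10 and Foxd3 give rise to neurons, which switch on Phox2a, Hand2 and the Elavl RNA-binding proteins and later their transmitters, and to glia, which keep Sox10. Loss of Ret or Ednrb signalling leaves part of the bowel without neurons, as in Hirschsprung disease.

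The C362A group carried a Casp8 knockin in which the catalytic cysteine of caspase-8, a protease that starts apoptosis below death receptors, is replaced by alanine. The knockout group had Casp8 knocked out, and the wildtype group kept wildtype Casp8. All 3 groups also lacked Mlkl, the pseudokinase that carries out necroptosis, so no group with intact Mlkl enters any comparison. Each group had 5 polyA libraries. Per the labels, the C362A tissue was inflamed and the knockout and wildtype tissue normal. The labels give no litter, sex, batch or gut segment, and do not say that the libraries of a group came from separate embryos, so the p-values measure the spread between these libraries, which may in part be technical.

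Libraries held 31896399 to 38532127 counts in 22295 to 24039 genes. Casp8, the targeted gene, was at 69.9 ± 3.41 CPM (counts scaled by library size) in the C362A group, 14.4 ± 1.65 CPM in knockout and 70.1 ± 5.97 CPM in wildtype libraries (SD, n = 5 each). Mlkl was at or below 0.839 CPM in every library. Markers of the gut wall and lining were abundant in every library, with 5667 to 8313 CPM summed over 10 smooth muscle genes and 3758 to 7590 CPM over 9 epithelial genes. C362A replicate 5 stood apart from the other C362A libraries, with an epithelial sum of 5069 CPM, against 3758 to 4054 CPM in the other 4, and a fibroblast sum over 7 genes of 5195 CPM, against 6749 to 7705 CPM. Calls, separations between groups and summed levels that turned on this library are also given without it.

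Of the 29 genes 28 had reads in every library, and Npy in all but 2. Of 6 central nervous system markers, Olig2, a regulator of spinal cord and brain progenitors, had 0 counts in all 15 libraries and Neurod6, a gene of forebrain neurons, at most 2 per library. The 6 together summed to 1.28 to 2.83 CPM, most of it from Pax6, which enteroendocrine cells also express. Of 5 melanoblast markers, the pigment enzymes Tyr and Tyrp1 had 0 and at most 1 count per library, while Dct had 54 to 120, Pmel 47 to 104 and Mitf 45 to 95.

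Markers shared with sympathetic neurons and adrenal chromaffin cells were mixed. Pnmt, which makes adrenaline, had at most 3 counts per library and Slc6a2, the noradrenaline transporter, at most 12. The other 6 genes of that list were present in every library, among them Slc18a2, the vesicular monoamine transporter, with 169 to 283 counts, Gata2 with 119 to 325 and Dlk1, which fetal mesenchyme also expresses, with 6565 to 19663. The 8 genes summed to 326 to 493 CPM in C362A, 255 to 485 CPM in knockout and 280 to 638 CPM in wildtype libraries. Most of this sum was Dlk1, with a mean of 306.2 CPM over 15 libraries. Of 5 markers of adrenal cortex and gonad, Cyp11a1 had 28 to 284 counts, Star 60 to 181 and Cyp17a1 at most 5.

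Levels between genes were compared as the deposited RPKM values, which the authors scaled by gene length and by a library's size factor. The mean over 15 libraries ran from 46.8 RPKM for Uchl1 to 0.122 RPKM for Th, which places the genes between the 94.2 and 33.8 percentiles of the 28531 genes with a count. Uchl1, Stmn2, Tubb3 and Gap43, genes of the neuronal cell body and axon, were among the 5 highest together with Ednrb, and the enzymes that make acetylcholine and noradrenaline stood near the bottom. Ranges of neighbours in this order mostly overlapped, but overlap does not show equal levels, since both genes were read in the same libraries. The ranges of the 5 wildtype libraries overlapped between every pair of neighbours except at 4 steps, between Uchl1 and Ednrb, Stmn3 and Vip, Ret and Gal, and Nos1 and Dbh.

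**Figure D1:**
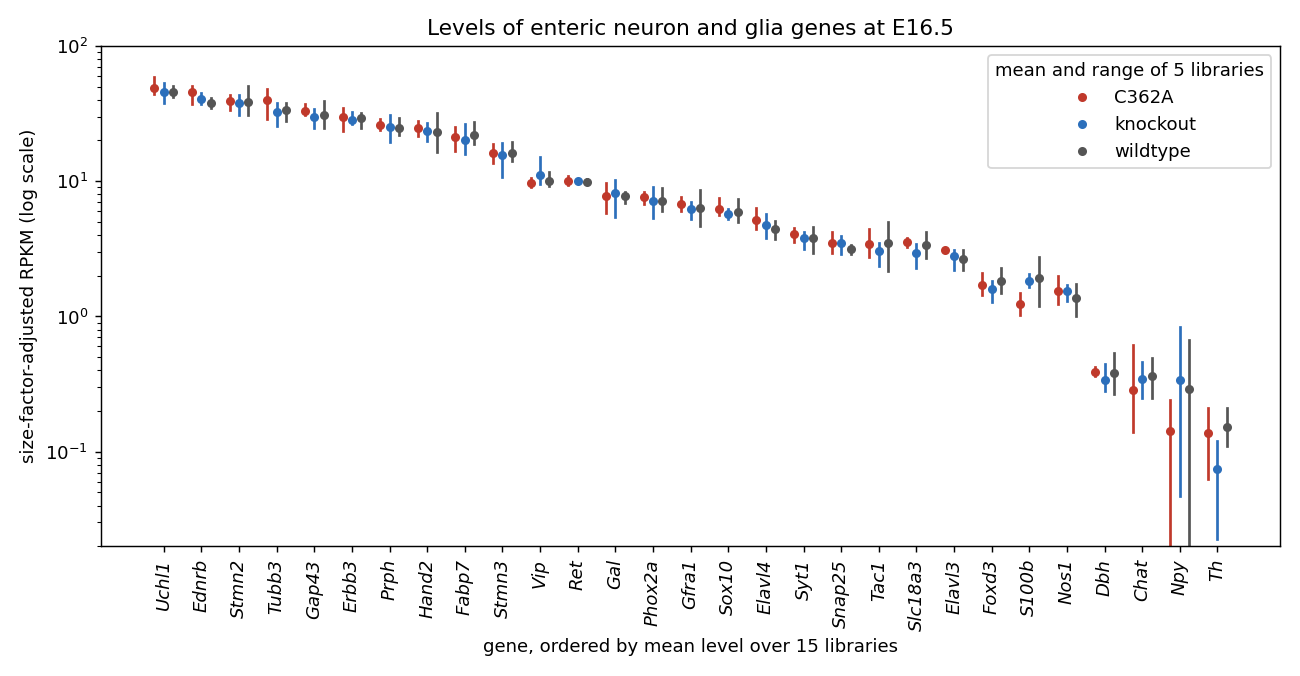
Size-factor-adjusted RPKM on a log axis for the 29 genes, ordered by their mean over 15 libraries, with a point for the mean and a line for the range of the 5 libraries of the C362A, knockout and wildtype groups. The order runs from Uchl1 at 46.8 RPKM to Th at 0.122 RPKM, the ranges of the 3 genotypes overlap for every gene but S100b between C362A and knockout, and lines that reach the lower edge include a library at 0.

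Among the neuronal regulators, Hand2, a transcription factor needed for the final differentiation of enteric neurons (chr8:57320983-57324517, GRCm38), had the highest level per length, 23.8 ± 3.74 RPKM over 15 libraries. In CPM it was at 60.1, 64.3, 54.1, 55.5 and 49.6 in C362A, at 61.9, 50.7, 49.2, 60.8 and 45.7 in knockout, and at 73.0, 49.3, 51.5, 37.6 and 54.9 in wildtype libraries. Both the highest and the lowest of the 15 values came from wildtype libraries, and the 3 groups overlapped. Hand2 is also expressed by gut mesenchyme, and 19.6% of its exonic bases are shared with Hand2os1 on the other strand, which this unstranded library kit cannot separate.

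Phox2a, a homeobox factor of autonomic neurons, averaged 7.32 ± 0.987 RPKM over 15 libraries. Elavl4 and Elavl3, which encode neuronal RNA-binding proteins known as HuD and HuC, averaged 4.80 ± 0.684 and 2.85 ± 0.332 RPKM. Of the exonic bases of Phox2a 4.67% are shared with Inppl1 on the other strand, and of those of Elavl3 3.72% with Gm49318 on the same strand. Their coefficients of variation over the 15 libraries were 13.5%, 14.2% and 11.6%, against 15.7% for Hand2.

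Ret, the receptor tyrosine kinase of the GDNF family (chr6:118151748-118197744), was the steadiest of the 28 tested genes. Its level was 69.8, 78.3, 74.7, 81.8 and 73.9 CPM in C362A, 76.8, 78.9, 75.6, 75.1 and 74.3 CPM in knockout, and 73.3, 73.1, 77.6, 74.3 and 72.1 CPM in wildtype libraries. The biological coefficient of variation that edgeR estimated for Ret, which is the spread between libraries of a group beyond counting error, was 0.071. That is at the 0.272 percentile of all 18370 genes tested. The 15 values of Ret in RPKM had a coefficient of variation of 3.96%, against 15.6% for Gfra1, the coreceptor that binds GDNF. Gfra1 ran from 4.65 to 8.56 RPKM with a mean of 6.43 RPKM, and 7.6% of its exonic bases are shared with an antisense gene.

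Genes of the neuronal cytoskeleton and axon growth held 4 of the 5 highest places. Uchl1, a deubiquitinating enzyme abundant in neurons (chr5:66676121-66687234), was at 68.6, 54.2, 54.1, 57.4 and 51.8 CPM in C362A, at 59.0, 50.4, 53.8, 61.9 and 45.0 CPM in knockout, and at 59.4, 52.4, 53.8, 49.2 and 55.3 CPM in wildtype libraries. C362A replicate 1 had the highest value and the other 4 C362A libraries lay within the range of the knockout libraries. Of its exonic bases 18.1% are shared with Uchl1os on the other strand.

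Stmn2 and Stmn3, microtubule-destabilising stathmins of growing axons, averaged 38.4 ± 4.99 and 15.9 ± 2.32 RPKM over 15 libraries. Tubb3, the neuronal beta tubulin used to stain enteric neurons, averaged 35.3 ± 5.82 RPKM. Gap43, a growth cone protein, averaged 31.3 ± 4.09 RPKM, and Prph, an intermediate filament of peripheral neurons, 25.3 ± 3.07 RPKM. In each of these 5 genes the ranges of the 3 genotypes overlapped.

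The machinery of vesicle release was present at lower levels. Syt1, the calcium sensor of synaptic vesicles (chr10:108497650-109010980), was at 18.8, 22.0, 21.0, 24.2 and 22.1 CPM in C362A, at 22.6, 20.3, 20.8, 21.6 and 17.0 CPM in knockout, and at 22.99, 19.2, 24.3, 15.6 and 19.9 CPM in wildtype libraries. The wildtype values had the widest range and enclosed all knockout and C362A values. Snap25, the membrane partner of vesicle fusion, averaged 3.37 ± 0.392 RPKM over 15 libraries, close to the 3.89 ± 0.459 RPKM of Syt1.

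Transmitter genes differed widely in level. Slc18a3, the vesicular acetylcholine transporter, stood highest of the 5 at 3.28 ± 0.470 RPKM over 15 libraries. Nos1, the neuronal nitric oxide synthase of inhibitory motor neurons, followed with 1.49 ± 0.238 RPKM, and 2.4% of its exonic bases are shared with an antisense gene. Dbh, which turns dopamine into noradrenaline, averaged 0.369 ± 0.0679 RPKM, Chat, which makes acetylcholine, 0.332 ± 0.132 RPKM, and Th, the rate-limiting enzyme of catecholamine synthesis, 0.122 ± 0.0570 RPKM. Dbh, Chat and Th rest on 19 to 42, 13 to 60 and 2 to 18 counts per library, so their differences between libraries carry large counting errors.

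Slc18a3 lies inside the Chat gene (chr14:32408203-32465909), on the same strand, at chr14:32462437-32464850, in the arrangement known as the cholinergic gene locus. No exonic base of Chat lies inside Slc18a3, and the starts of the 2 genes are 1059 bases apart. The Slc18a3 level in RPKM was a median of 10.4 times that of Chat within a library, with a range of 5.47 to 27.0 times over the 15 libraries. Slc18a3 was at 9.40, 8.06, 8.78, 8.97 and 8.45 CPM in C362A, at 8.01, 7.24, 6.95, 8.39 and 5.73 CPM in knockout, and at 8.53, 8.72, 10.4, 7.58 and 6.74 CPM in wildtype libraries. The 3 groups overlapped, with knockout replicate 5 the lowest of the 15.

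Chat had the largest biological coefficient of variation of the 28 genes, 0.358, against a median of 0.14 over all genes tested. It was at 0.405, 0.757, 0.511, 0.637 and 1.80 CPM in C362A, at 0.927, 1.33, 1.27, 0.717 and 0.755 CPM in knockout, and at 0.723, 1.18, 1.101, 0.850 and 1.41 CPM in wildtype libraries. C362A replicate 5 had the highest value of all 15, while 3 of the other 4 C362A libraries lay below every wildtype library.

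The promoter windows of these genes are shown because Chat and Slc18a3 share a locus at unequal levels, and because Th had the largest fold change between genotypes among the 28 tested genes. Each window runs from 250 bases before to 50 bases after the annotated start, from RefSeq on GRCm38.p6, and is read 5′ to 3′ on the minus strand, which is the coding strand of all 3 genes. They cover chr14:32465860-32466159 for Chat, chr14:32464801-32465100 for Slc18a3 and chr7:142899946-142900245 for Th. Capitals mark the core of the cAMP response element, the letters TGACG or, on the other strand, CGTCA, and in Th the overlapping pair that makes the full element TGACGTCA.
Chat: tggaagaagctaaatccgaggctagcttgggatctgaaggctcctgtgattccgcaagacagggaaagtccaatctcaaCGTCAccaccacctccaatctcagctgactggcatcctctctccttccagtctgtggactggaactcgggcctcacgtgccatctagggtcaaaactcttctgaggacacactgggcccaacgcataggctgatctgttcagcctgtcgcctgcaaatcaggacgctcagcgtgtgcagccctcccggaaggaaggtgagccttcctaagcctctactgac
Slc18a3: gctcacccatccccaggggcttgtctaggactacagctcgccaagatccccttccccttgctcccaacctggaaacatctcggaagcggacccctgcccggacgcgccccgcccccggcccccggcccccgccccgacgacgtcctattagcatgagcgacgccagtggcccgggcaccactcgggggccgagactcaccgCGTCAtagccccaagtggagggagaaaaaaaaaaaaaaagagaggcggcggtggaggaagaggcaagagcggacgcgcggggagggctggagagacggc
Th: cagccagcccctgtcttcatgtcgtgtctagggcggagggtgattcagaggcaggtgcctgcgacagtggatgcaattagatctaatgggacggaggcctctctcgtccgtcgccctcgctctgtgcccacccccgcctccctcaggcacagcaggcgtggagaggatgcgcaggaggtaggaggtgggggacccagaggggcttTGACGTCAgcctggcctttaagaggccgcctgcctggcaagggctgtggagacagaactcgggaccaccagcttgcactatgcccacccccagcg

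The core was present in 20.8% of the 32851 windows of this length in RefSeq. A window was given for 23 of the 29 genes, and 12 of these 23 held the core in at least 1 window, namely Chat, Dbh, Ednrb, Elavl4, Foxd3, Gal, Hand2, Nos1, Slc18a3, Tac1, Th and Vip. Counted by window, 14 of the 27 windows of these genes held it, or 51.9%. The full element was in 1.79% of all windows and, among these genes, in those of Foxd3 and Th. The E-box CAGCTG, which reads the same on both strands, was in 16.3% of all windows and in those of Chat, Elavl3, Elavl4, Gfra1 and Syt1. A match describes the letters in the window only.

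The neuropeptide genes were led by Vip, the vasoactive intestinal peptide of inhibitory and secretomotor neurons (chr10:5639193-5647617). It was at 16.8, 14.6, 15.2, 16.2 and 14.6 CPM in C362A, at 16.8, 17.8, 15.4, 23.9 and 15.4 CPM in knockout, and at 15.01, 16.2, 18.6, 15.3 and 14.6 CPM in wildtype libraries. Knockout replicate 4 stood above the other 14 libraries. Gal, which encodes galanin, averaged 7.92 ± 1.26 RPKM and Tac1, which encodes substance P, 3.32 ± 0.723 RPKM over 15 libraries. Npy, which encodes neuropeptide Y, averaged 0.257 RPKM, and was at 0 in C362A replicate 1 and in wildtype replicate 4. Some peptide genes can also be read in enteroendocrine cells of the epithelium, whose 14 markers summed to 292 to 498 CPM in the C362A group, 243 to 326 CPM in knockout and 289 to 483 CPM in wildtype libraries, and their part in these levels was not tested.

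Of the glia and progenitor genes, Ednrb, the endothelin receptor of crest progenitors (chr14:103814615-103844508), and Erbb3, the neuregulin receptor of crest cells and glia, stood highest at 41.3 ± 4.75 and 29.1 ± 3.34 RPKM over 15 libraries. Both are also expressed outside the crest lineage, Erbb3 for example in epithelium. Fabp7, a fatty acid binding protein of radial and enteric glia, averaged 21.1 ± 3.47 RPKM, and Sox10, the transcription factor of crest progenitors and glia, 5.97 ± 0.706 RPKM. Foxd3, a crest progenitor factor, averaged 1.72 ± 0.252 RPKM and S100b, a calcium-binding protein of maturing glia, 1.67 ± 0.478 RPKM.

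In C362A against wildtype, 0 of the 28 tested genes passed the quasi-likelihood test of edgeR at 0.05 after Benjamini-Hochberg adjustment over all genes. Over all genes, 15 of 18370 were called, or 0.0817%, so the members' count of 0 is near the background. Adjusted p-values of the 28 ran from 0.285 to 0.990. DESeq2 and limma-voom also called 0 of the 28. By edgeR, the unadjusted p was under 0.05 for 1 member that was higher and 1 that was lower, against 8.08% of all genes higher and 7.8% lower (15.9% in either direction). No member had C362A libraries that lay all above or all below the wildtype libraries, as 1.16% of all genes did. In whole tissue, fewer cells of a type and less RNA per cell cannot be told apart, and this holds for every comparison here.

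Differences of most of these genes were small in both directions. The log2 fold changes ran from -0.61 for S100b to 0.26 for Ednrb, with a median of 0.06 beside 0.01 over all genes tested, and 21 of 28 were positive (75.0%, against 51.4% of all genes). The median was 0.01, with 16 of 28 positive, without wildtype replicate 4, 0.03 without wildtype replicate 5 and 0.11 without wildtype replicate 1. For 25 of the 28, the 95% interval of the fold change lay inside 1.5-fold in either direction, as it did for 67.4% of all genes. The exceptions were Th, Chat and S100b, which rest on few counts or vary widely. All 4 neuronal regulators, both GDNF receptors, all 6 cytoskeletal genes and both vesicle genes had positive values, between 0.01 and 0.24, and none passed. Of the 5 transmitter genes 3 were positive, of the 3 peptide genes 1, and of the 6 glia and progenitor genes 3.

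Ednrb had the smallest p. It was at 224, 190, 215, 218 and 167 CPM in C362A libraries, against 167, 169, 172, 156 and 185 CPM in wildtype libraries. Of the 5 C362A values 4 lay above every wildtype value, and C362A replicate 5 lay within the wildtype range. The means were 202.7 ± 24.0 CPM in C362A and 169.6 ± 10.4 CPM in wildtype (SD, n = 5 each), a log2 fold change of 0.26 (SE 0.08, edgeR adjusted p = 0.285).

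S100b was at 1.81, 2.54, 2.25, 1.74 and 2.31 CPM in C362A libraries, against 3.01, 2.55, 4.02, 4.64 and 2.05 CPM in wildtype libraries. Of the 5 wildtype values 4 lay above every C362A value, and wildtype replicate 5 lay within the C362A range. The log2 fold change was -0.61 (SE 0.20, edgeR adjusted p = 0.285), on 58 to 94 counts in C362A and 77 to 142 counts in wildtype libraries. Sox10, Fabp7 and Erbb3, other glial genes, had means of 17.8 ± 2.25, 16.6 ± 2.43 and 123.0 ± 20.2 CPM in C362A and 16.9 ± 2.59, 17.2 ± 2.90 and 120.9 ± 11.5 CPM in wildtype (SD, n = 5 each).

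Elavl3 had the next smallest p, with 15.6, 15.9, 15.7, 16.2 and 16.48 CPM in C362A libraries, against 16.1, 12.9, 13.9, 11.3 and 14.7 CPM in wildtype libraries. The C362A values lay close together and overlapped the wildtype values only through wildtype replicate 1. Its log2 fold change was 0.21 (SE 0.10, edgeR adjusted p = 0.318). Its paralog Elavl4 had 28.7 ± 3.95 CPM in C362A and 24.4 ± 2.72 CPM in wildtype (SD, n = 5 each), a log2 fold change of 0.23 (edgeR adjusted p = 0.324).

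**Figure D2:**
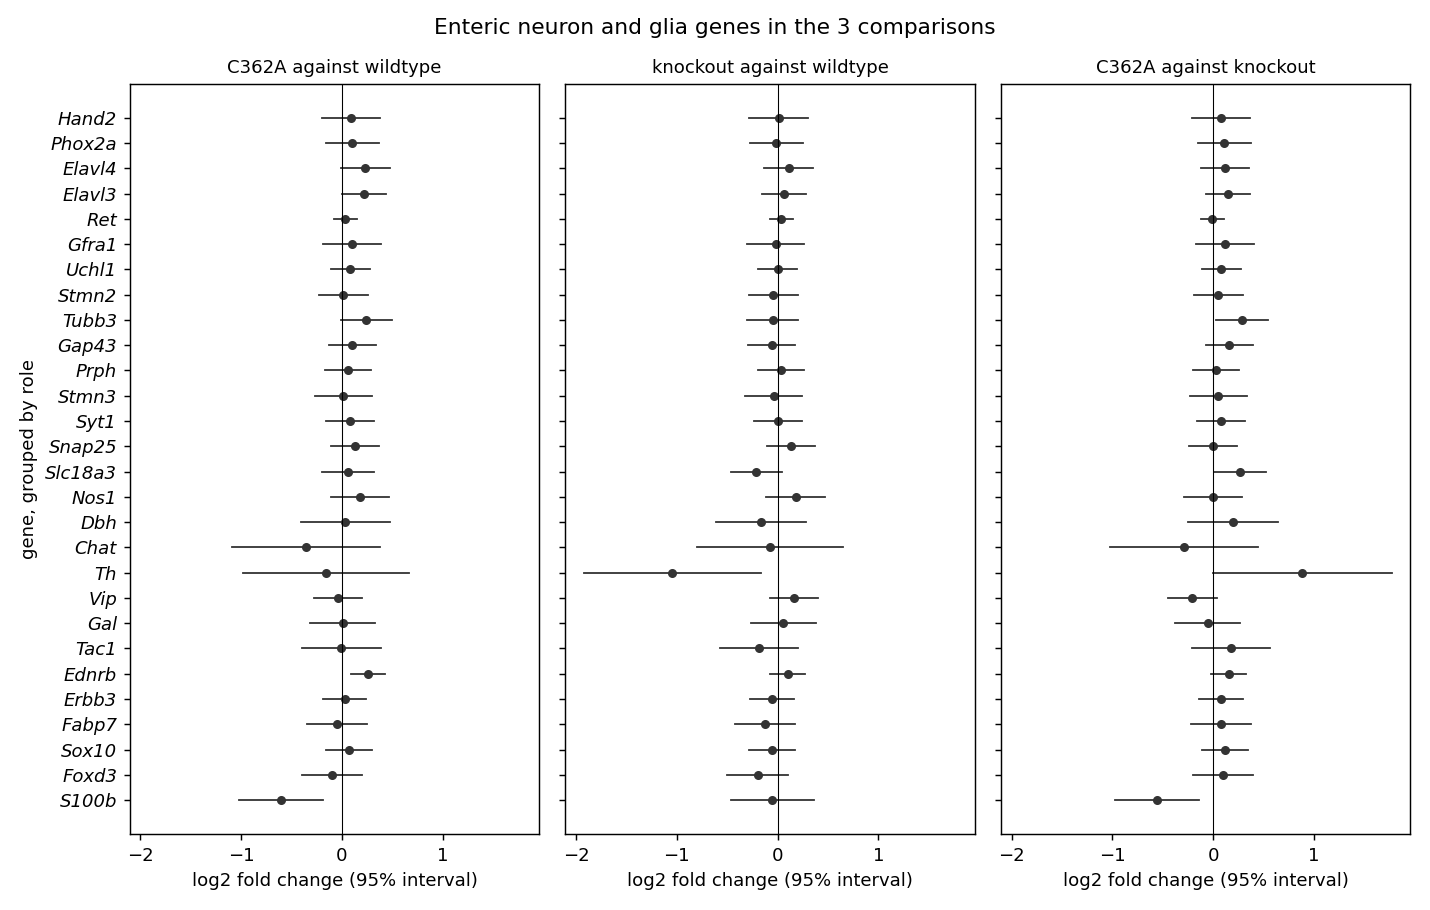
Log2 fold changes with 95% intervals from the edgeR fit for the 28 tested genes, grouped by role, in C362A against wildtype, knockout against wildtype and C362A against knockout. Most intervals include 0 and are narrow, S100b lies at -0.61 and -0.56 in the comparisons of C362A, and the widest intervals belong to Th and Chat.

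The result depended on C362A replicate 5. Without it, 1807 of 18510 genes were called in C362A against wildtype, or 9.76% (4.29% higher), and 2 of the 28 genes were among them, both higher. Ednrb then had a log2 fold change of 0.32 (edgeR adjusted p = 0.0214) and Tubb3 one of 0.33 (edgeR adjusted p = 0.0496). The share called among the 28 was thus near the background of that fit too. For the same 2 genes the other 4 C362A libraries lay above all wildtype libraries, as for 4.91% of all genes, and for 0 of the 28 did they lie below, beside 4.69% of all genes. With all 15 libraries Tubb3 had 83.8, 67.9, 73.5, 74.7 and 51.5 CPM in C362A libraries, against 67.6, 60.1, 61.3, 49.5 and 59.0 CPM in wildtype libraries, and C362A replicate 5 was the lowest of its group.

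Markers of the cell types around the plexuses were read in the same comparison. In C362A against wildtype all 10 smooth muscle markers had positive log2 fold changes (median 0.20), as did all 7 fibroblast markers (0.25) and all 5 endothelial markers (0.27), while all 9 epithelial markers had negative ones (-0.12). None of these 31 genes was called. Of the markers of interstitial cells of Cajal, the pacemaker cells of the gut wall, 3 of 4 were positive (median 0.21, none called). These 4 were uneven. Gucy1a1 was at 112.5 CPM in C362A and 80.6 CPM in wildtype, and Etv1 at 15.1 and 12.0 CPM. Kit was at 46.3 CPM in C362A and 43.5 CPM in wildtype, and Ano1, the negative one, at 31.6 and 33.5 CPM. Of the macrophage markers 5 of 6 were positive (median 0.27), and Adgre1, the F4/80 antigen, was called, at 14.3 ± 1.42 CPM in C362A and 8.52 ± 0.854 CPM in wildtype (SD, n = 5 each), a log2 fold change of 0.75 (SE 0.13, edgeR adjusted p = 0.0361). Summed levels of smooth muscle markers were 6229 to 8313 CPM in C362A and 5667 to 6805 CPM in wildtype libraries, and those of epithelial markers 3758 to 5069 CPM in C362A and 4056 to 7590 CPM in wildtype libraries. Without C362A replicate 5 these sums did not overlap, with smooth muscle at 6854 to 8313 CPM and epithelium at 3758 to 4054 CPM in the other 4 C362A libraries. The gaps to wildtype were narrow, at 6854 against 6805 CPM for smooth muscle and 4054 against 4056 CPM for epithelium. No background was taken for such sums. In knockout against wildtype all 10 smooth muscle (median 0.13), all 5 endothelial (0.12) and all 6 macrophage markers (0.19) were positive too. There 5 of 7 fibroblast markers (0.06), 5 of 9 epithelial markers (0.00) and 11 of the 28 members were positive, and 0 of these were called. The part of all these cell types in the small positive values of the neuronal genes was not tested.

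In knockout against wildtype, 0 of the 28 genes were called by edgeR's quasi-likelihood test, DESeq2 or limma-voom. The background was 7 of 18370 genes, or 0.0381%. The edgeR adjusted p was 0.9999 for every one of the 28, and 1 member was lower with an unadjusted p under 0.05, against 1.23% of all genes (2.43% in either direction). No member had non-overlapping groups, as 0.702% of all genes did. The median log2 fold change was -0.03, beside 0.00 over all genes, and 11 of 28 were positive (39.3%, against 48.2% of all genes). For 25 of the 28 the 95% interval lay inside 1.5-fold, against 73.8% of all genes, the exceptions being Dbh, Th and Chat. With 1 library left out the median ran from -0.06 to 0.05, and it changed sign without knockout replicate 5 (0.04) or wildtype replicate 1 (0.05).

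Th had the smallest p and the log2 fold change farthest from 0 of the 28. It was at 0.169, 0.272, 0.0530, 0.281 and 0.104 CPM in knockout libraries, against 0.260, 0.494, 0.327, 0.262 and 0.453 CPM in wildtype libraries. Of the 5 knockout values 3 lay below every wildtype value. The log2 fold change was -1.04 (SE 0.42, edgeR adjusted p = 0.9999), on 2 to 10 counts in knockout and 8 to 18 counts in wildtype libraries. C362A libraries had 0.324 ± 0.131 CPM. Th and Dbh also mark sympathetic nerves and adrenal tissue. Of the 6 tested genes of the sympathetic and chromaffin list 4 had negative values in this comparison (median -0.15) and none was called. Chga and Isl1, with lower means in knockout than in wildtype, are also on the list of enteroendocrine markers. Slc6a2 and Pnmt did not pass the filter on low counts. The part of sympathetic or adrenal tissue in the Th values was not tested.

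Slc18a3 was next, with 7.26 ± 1.03 CPM in knockout and 8.39 ± 1.36 CPM in wildtype (SD, n = 5 each), and a log2 fold change of -0.21 (SE 0.12, edgeR adjusted p = 0.9999). Vip followed, with 17.9 ± 3.55 CPM in knockout and 15.9 ± 1.59 CPM in wildtype (0.16, SE 0.11, edgeR adjusted p = 0.9999). The knockout mean of Vip includes replicate 4 at 23.9 CPM. Of the enteroendocrine markers 14 of 14 had negative log2 fold changes in the same comparison (median -0.29) and none was called, and their part in the neuropeptide values was not tested.

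C362A against knockout sets inactive caspase-8 protein against its absence. Again 0 of the 28 genes were called by edgeR's quasi-likelihood test, DESeq2 or limma-voom, beside 2 of 18370 genes, or 0.0109%. Adjusted p-values in edgeR ran from 0.317 to 0.996, and the unadjusted p was under 0.05 for 2 members that were higher and 1 that was lower, against 6.49% of all genes higher and 7.41% lower (13.9% in either direction). The median log2 fold change was 0.08, beside 0.01 over all genes, and 22 of 28 were positive (78.6%, against 53.2% of all genes). Without knockout replicate 5 the median was 0.03, with 19 of 28 positive. The 95% interval lay inside 1.5-fold for 24 of 28, against 68.1% of all genes, the exceptions being Dbh, Th, Chat and S100b. The 3 comparisons share libraries pairwise, so their values are not independent.

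S100b had the smallest p in this comparison, and was the 1 gene of the 28 whose libraries did not overlap between the groups. Its C362A values lay between 1.74 and 2.54 CPM and its knockout values of 3.54, 2.80, 3.08, 3.37 and 2.89 CPM lay above them all. Among all genes 1.74% had C362A libraries that all lay below the knockout libraries. For 0 of the 28 genes did all C362A libraries lie above the knockout libraries, beside 1.11% of all genes. Its log2 fold change was -0.56 (SE 0.20, edgeR adjusted p = 0.317), with means of 2.13 ± 0.345 CPM in C362A and 3.13 ± 0.313 CPM in knockout (SD, n = 5 each).

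Tubb3 was at 70.3 ± 11.97 CPM in C362A and 57.6 ± 7.84 CPM in knockout (SD, n = 5 each), where the 5 knockout values were 66.7, 58.0, 55.5, 62.0 and 45.8 CPM. Of the 5 C362A values 4 lay above every knockout value. Its log2 fold change was 0.29 (SE 0.12, edgeR adjusted p = 0.325). Slc18a3 followed at 8.73 ± 0.510 CPM in C362A and 7.26 ± 1.03 CPM in knockout, a log2 fold change of 0.27 (SE 0.12, edgeR adjusted p = 0.347). Without C362A replicate 5, 805 of 18510 genes were called, or 4.35% (1.78% higher), and Tubb3 was the 1 member among them (higher, 0.38, edgeR adjusted p = 0.0478). Tubb3 was then also the 1 member whose C362A libraries all lay above the knockout libraries, as for 6.34% of all genes, and S100b the 1 whose C362A libraries all lay below, as for 8.5%. Markers of other cells also differed in sign by list in C362A against knockout. Positive values were found in 7 of 7 fibroblast (median 0.27), 11 of 14 enteroendocrine (0.33) and 9 of 10 smooth muscle markers (0.07). They were also found in 4 of 4 markers of interstitial cells of Cajal (0.19), 4 of 5 endothelial (0.15) and 5 of 6 macrophage markers (0.12). Negative values were found in 8 of 9 epithelial (-0.12) and 5 of 5 erythroid markers (-0.44). None of these was called, and their part in the values of the 28 genes was not tested.

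**Figure D3:**
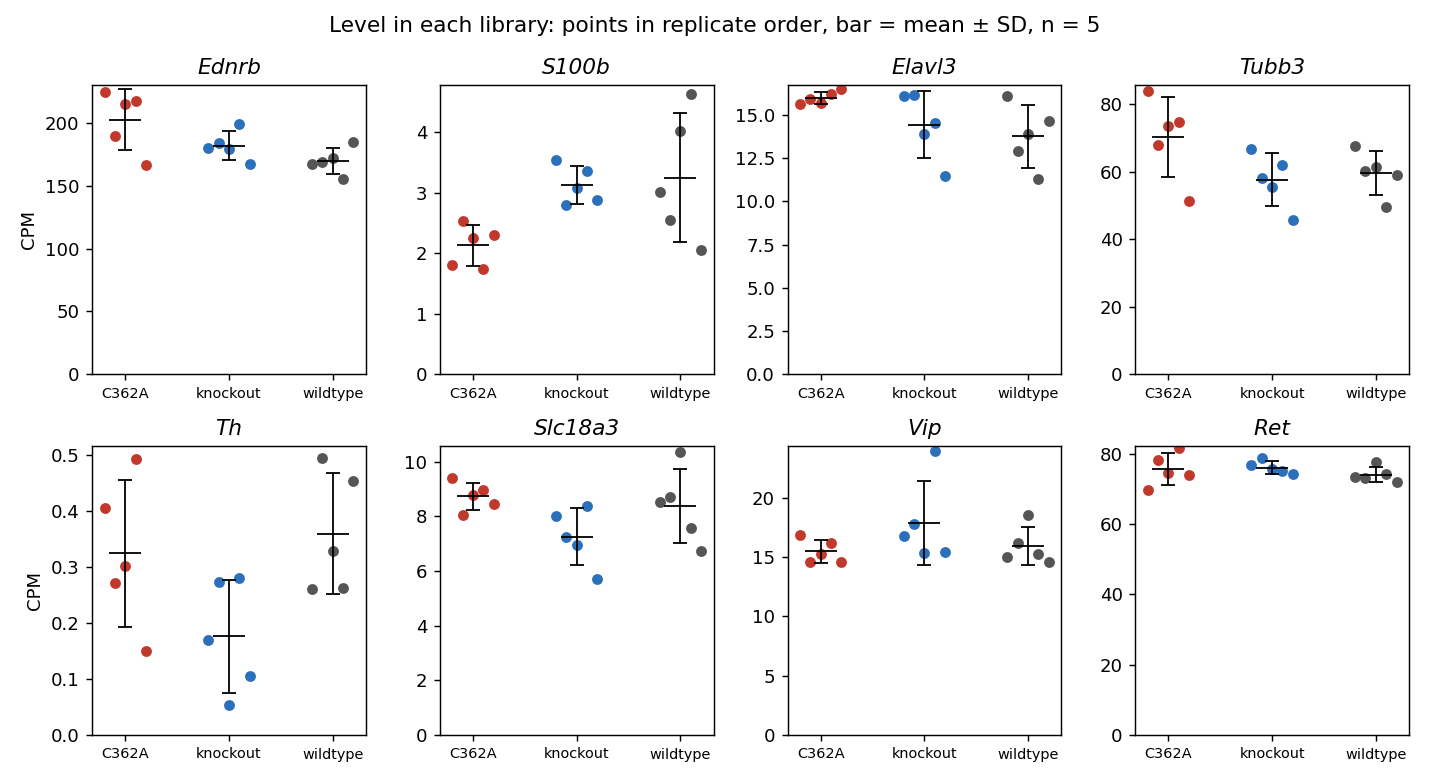
CPM scaled by TMM factors in each library for 8 genes, with points in replicate order and bars for the mean ± SD of the 5 libraries of the C362A, knockout and wildtype groups, on axes that start at 0. C362A values of Ednrb lie above all wildtype values except in replicate 5, S100b is lower in all C362A than in all knockout libraries, and Ret stays between 69.8 and 81.8 CPM.

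Summed levels overlapped between the genotypes when all 15 libraries were used. Over the 23 neuronal genes the sum was 644 ± 31.1 CPM in the C362A group, 608 ± 61.4 CPM in knockout and 605 ± 65.1 CPM in wildtype (SD, n = 5 each), with overlapping ranges of 604 to 674 CPM in C362A, 521 to 672 CPM in knockout and 523 to 701 CPM in wildtype libraries. Knockout replicate 5 was the lowest of all 15 libraries in 10 of the 22 tested neuronal genes, and wildtype replicate 4 in 6. Wildtype replicate 1 was the highest in 5. Wildtype replicate 4 also had the highest epithelial sum, 7590 CPM, and knockout replicate 5 the highest fibroblast sum of its group, 7445 CPM, and their part in the low neuronal values was not tested.

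Sox10, S100b, Fabp7 and Foxd3 together summed to 40.7 ± 3.796 CPM in the C362A group, 39.2 ± 3.71 CPM in knockout and 41.8 ± 5.51 CPM in wildtype (SD, n = 5 each). The 3 groups overlapped. With Ednrb and Erbb3, which make up most of the RNA of the 6 genes, the sum was 366 ± 35.5 CPM in the C362A group, 338 ± 14.9 CPM in knockout and 332 ± 10.2 CPM in wildtype. The overlap of this sum came from C362A replicate 5 alone, at 312 CPM. The other 4 C362A libraries, at 361.6 to 399.6 CPM, lay above all knockout libraries, at 317 to 356 CPM, and all wildtype libraries, at 320.5 to 346 CPM. The sums of the 23 neuronal genes and of the 4 glial genes overlapped without this library too.

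**Figure D4:**
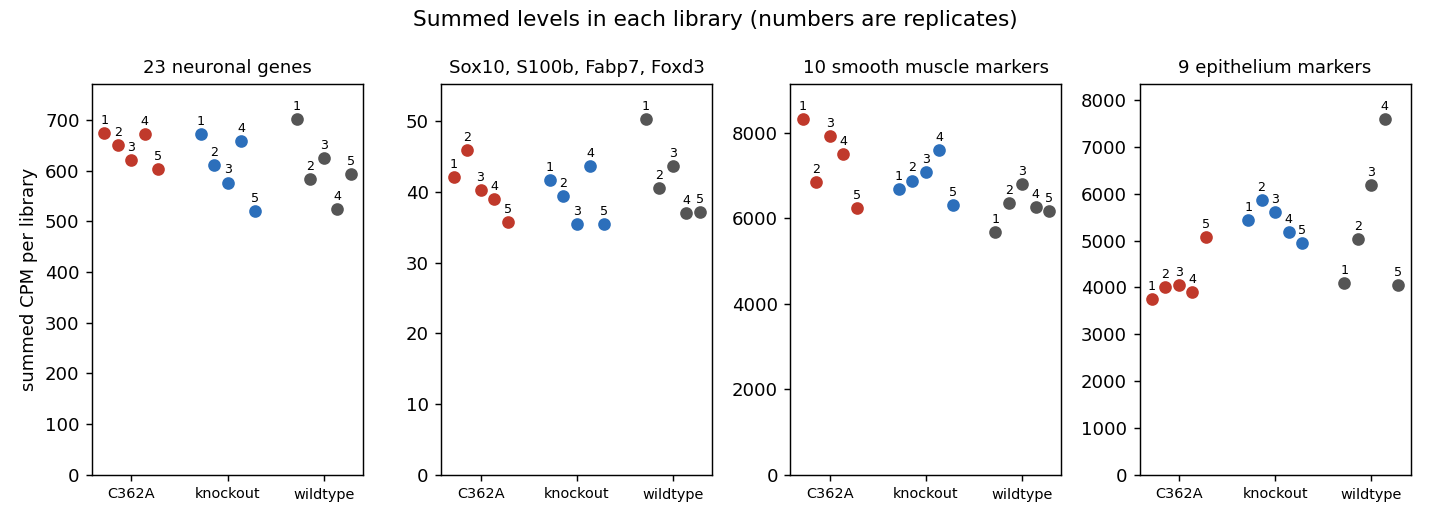
Summed CPM per library for the 23 neuronal genes, for the 4 glial genes Sox10, S100b, Fabp7 and Foxd3, for 10 smooth muscle markers and for 9 epithelial markers, with the replicate number above each point and axes that start at 0. Neuronal and glial sums of the 3 genotypes overlap, and wildtype replicate 4 has a low neuronal sum, 523 CPM, and the highest epithelial sum, 7590 CPM.

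Whether neuronal RNA varied together with glial, muscle or epithelial RNA between libraries was tested over 15 libraries with 1 gene for each, on log2 CPM, in 4 pairs with permutation tests of 100000 resamples (two-sided). None passed. Elavl4 and Sox10 had a Pearson r of 0.19 (permutation p = 0.498, adjusted over the 4 pairs 0.784) and a Spearman rho of 0.157 (permutation p = 0.575, adjusted 0.872). Without the 2 libraries farthest from the median of Elavl4, r was 0.14.

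Elavl4 and Myh11, the smooth muscle myosin, had the largest r, 0.475 (permutation p = 0.0746, adjusted 0.298), with a rho of 0.246 (permutation p = 0.374, adjusted 0.872). Without the 2 farthest libraries r was 0.00326. Leaving out the extremes of Elavl4 narrows its range, which can itself lower r, so the drop cannot show that r rests on those 2. With 1 library left out r ran from 0.264, without C362A replicate 4, to 0.59, without knockout replicate 5. With the genotype means subtracted r was 0.275 (permutation p = 0.322, adjusted 0.667) for Elavl4 and Myh11, and 0.112, 0.158 and -0.268 for Elavl4 with Sox10, Elavl4 with Epcam and Sox10 with Myh11. Sample ID numbers in the labels form 2 unbroken runs, and within them r was 0.0749 over 6 libraries (exact permutation p = 0.801) and 0.77 over 9 libraries (exact permutation p = 0.0196, adjusted 0.0784). Elavl4 and Epcam, an epithelial adhesion gene, had an r of 0.0777 (permutation p = 0.784, adjusted 0.784) and a rho of -0.0571 (permutation p = 0.842, adjusted 0.872), and Sox10 and Myh11 an r of -0.121 (permutation p = 0.67, adjusted 0.784) and a rho of -0.0464 (permutation p = 0.872, adjusted 0.872). For these pairs r without the 2 farthest libraries was 0.362 and 0.293. Within the runs of 6 and 9 libraries, r was 0.592 and 0.388 for Elavl4 and Sox10, 0.352 and -0.208 for Elavl4 and Epcam, and -0.55 and 0.239 for Sox10 and Myh11.

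A list of 50 other enteric nervous system genes was also measured, with 48 tested, since Calb2 and Nmu had at most 4 and 10 counts per library. Among them were Edn3, Ece1, Gdnf and the neurofilament genes. By edgeR, DESeq2 and limma-voom 0 of the 48 were called in C362A against wildtype, in knockout against wildtype or in C362A against knockout. At an unadjusted p under 0.05 in edgeR, 7, 2 and 4 were higher in these comparisons and 0 were lower, against backgrounds of 8.08%, 1.2% and 6.49% of all genes higher. Median log2 fold changes were 0.14, 0.03 and 0.10, and 39, 29 and 36 of 48 were positive. Without wildtype replicate 4 the median in C362A against wildtype was 0.08, with 33 positive, and that in knockout against wildtype changed sign to -0.02, with 22 positive. With 1 library left out the knockout against wildtype median ran from -0.02 to 0.09, the highest without wildtype replicate 1.

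The smallest p in C362A against wildtype belonged to 3 genes. Etv1, a transcription factor of some enteric neurons that also marks interstitial cells of Cajal, was at 15.1 ± 2.35 CPM in C362A and 12.0 ± 1.76 CPM in wildtype (SD, n = 5 each), a log2 fold change of 0.33. Zeb2, a zinc finger factor needed by the vagal crest, was at 87.0 ± 20.2 CPM in C362A and 64.0 ± 9.59 CPM in wildtype (0.44). Ina, a neuronal intermediate filament, was at 18.3 ± 1.89 CPM in C362A and 14.97 ± 1.74 CPM in wildtype (0.29). The edgeR adjusted p was 0.285 for each. When C362A replicate 5 was left out these 3 were called, with log2 fold changes of 0.40, 0.56 and 0.35 and edgeR adjusted p-values of 0.0397, 0.0300 and 0.0457, again beside 9.76% of all genes.

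In knockout against wildtype the smallest p belonged to L1cam, an axonal adhesion molecule (29.9 ± 1.198 CPM in knockout and 26.2 ± 2.87 CPM in wildtype), Gdnf (19.8 ± 1.55 CPM in knockout and 17.3 ± 2.09 CPM in wildtype) and Slc5a7, the choline transporter (7.03 ± 0.533 CPM in knockout and 5.86 ± 1.02 CPM in wildtype). Their log2 fold changes were 0.19, 0.20 and 0.26, each at an edgeR adjusted p of 0.9999. Gdnf, the ligand of Ret, is made by the mesenchyme of the gut wall.

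In C362A against knockout, Hoxb5, a homeobox factor of the crest and gut wall, was at 49.5 ± 5.28 CPM in C362A and 41.5 ± 5.68 CPM in knockout (SD, n = 5 each; log2 fold change 0.26, edgeR adjusted p = 0.325), and Pnoc, the nociceptin precursor, at 2.42 ± 1.17 CPM in C362A and 1.46 ± 0.272 CPM in knockout (log2 fold change 0.72, edgeR adjusted p = 0.330).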

How the data were processed

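Per the labels' protocols, RNA was purified on columns with DNase treatment and made into unstranded polyA libraries, read as single ends of 50 bp on a HiSeq4000. Per the submitters' processing notes, GSNAP aligned the reads to GRCm38. Its version, and the gene models behind the counts, were not given in the sources used here. The deposited counts are reads that align uniquely to a gene model, per the file headers, so genes with near-identical copies lose reads. The deposited RPKM values were adjusted by the authors with size factors, per the file headers. Genes were named from RefSeq on GRCm38.p6, which matched 31049 of 36528 IDs and all 29 members.

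All 15 libraries entered 1 robust quasi-likelihood fit in edgeR 4.0.16 (R 4.3.3), scaled by TMM, on genes kept by filterByExpr (minimum count 10, minimum total 15). It tested 18370 genes with Benjamini-Hochberg adjustment over all of them and a threshold of 0.05. The common biological coefficient of variation was 0.174. CPM is counts scaled by library size and TMM factors. Intervals of fold changes are 95% intervals from the fit's standard errors. DESeq2 1.42.0, limma-voom (limma 3.58.1), other scalings and filters, a block term for runs of adjoining sample ID numbers, and each library left out in turn were alternatives. Counts of genes whose groups do not overlap were also taken without C362A replicate 5, which was added after seeing the data. The fit was also run on simulated counts, drawn from a shared mean per gene with changes set in C362A, and the outcome is not reported here. No outlying library was simulated, so that run does not gauge the dependence on C362A replicate 5.

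The members and lists were chosen with earlier results of these data known. Values in every library are given for the member with the highest mean RPKM of each role, for the 3 with the smallest p in each comparison and for the members with the lowest and highest dispersion. Of the other enteric genes the 3 with the smallest p per comparison are named, except 1 that is not reported here. Other genes named singly were chosen after their values were seen. Replicate numbers follow accession order and pair no samples.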

Additional observations from a re-analysis of the deposited data

Results flagged for a closer look

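In each group of 5 libraries, the highest and lowest values of each of the 29 genes were compared with their neighbours by the gap to the nearest value over the whole range. In 3 of 87 groups the gap exceeded the critical value of 0.71, where chance flags about 1 in 20 groups. Chat had 1.80 CPM in C362A replicate 5, against 0.405 to 0.757 CPM in the other 4 C362A libraries. Vip had 23.9 CPM in knockout replicate 4, against 15.4 to 17.8 CPM in the other 4 knockout libraries. Erbb3 had 132.9 CPM in knockout replicate 3, against 108.6 to 114.4 CPM in the other 4 knockout libraries.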

How the results depend on the processing

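The 28 members had 0 calls in the 3 comparisons under every scaling, filter, tool and block tried and without any single library except C362A replicate 5, where the counts over single libraries left out ran from 0 to 2 in C362A against wildtype and from 0 to 1 in C362A against knockout. Other enteric genes had 0 to 3 calls in C362A against wildtype, 3 of them without C362A replicate 5. Counts over all genes moved more. In C362A against wildtype they were 1 with a filter of 5 CPM in 5 libraries, 54 with DESeq2 and 7 to 1807 with 1 library left out, and fell to 7 without C362A replicates 2 or 3 or wildtype replicate 5. In knockout against wildtype they were 2 with that filter, 13 with DESeq2, 1 with only the 2 genotypes fitted and 1 to 8 with 1 library left out. The lowest, 1, came without wildtype replicate 3, and 2 to 4 were left without C362A replicates 2 or 3, knockout replicates 1, 2, 3 or 5, or wildtype replicates 1 or 4. In C362A against knockout they were 26 with DESeq2, 4 with only the 2 genotypes fitted and 2 to 805 with 1 library left out. The cause was not tested. The block for runs of sample ID numbers gave 16, 7 and 2 genes and 0 members. No paired analysis was possible because the labels give no replicate number, litter or animal.

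Correlations changed sign in these cases. Elavl4 with Epcam was -0.208 within the run of 9 libraries and -0.304 to 0.261 with 1 library left out. Sox10 with Myh11 was 0.049 with library totals, 0.293 without the 2 farthest libraries, 0.239 within the run of 9 and -0.391 to 0.227 with 1 library left out. Elavl4 with Sox10 was -0.00615 to 0.361 with 1 library left out. Depth limits Th, Chat, Dbh and Npy, with at most 60 counts per library.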
